A study of Mus musculus with 2 samples.

Results

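Small intestinal organoids treated with NRG1 were compared with organoids treated with EGF within experiment 1 of the series. The comparison covered 12617 of the 31053 genes in the deposited count table, namely those with a total of at least 5 counts over the 6 libraries compared, 3 with NRG1 and 3 with EGF, out of 18 libraries in all. The choice of genes used only this total and not the difference between the ligands.

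Organoids are small cultures of gut epithelium grown in a gel. Crypts were isolated from C57BL/6J mice, a single animal for either of the 2 experiments, and the methods give 2 to 4 months as the age for crypt isolation. Every group in this comparison first spent 3 days in ENR medium (EGF at 50 ng/ml, Noggin at 100 ng/ml, R-spondin1 at 250 ng/ml) with N-acetylcysteine, and with the kinase inhibitor Y-27632 for the first 2 days, and was then held without EGF for 24 h. The EGF group next received EGF and the NRG1 group NRG1, each at 100 ng/ml for 24 h, after which RNA was taken, so the reference is a culture returned to EGF and not one without ligand. A further 3 libraries of experiment 1 were treated with EREG in the same way and entered the fit. The sources name the 3 libraries of a ligand as replicates and not as separate cultures. The p-values therefore measure how much libraries from 1 mouse differed, which may be technical, and say nothing of variation among mice.

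NRG1 and EGF are ligands of the same receptor family. EGF binds EGFR, whereas NRG1 binds ERBB3 or ERBB4, and ERBB3, whose own kinase is weak, signals with ERBB2 as its partner, above all through PI3K and AKT. In the intestine EGF is made by Paneth cells and is a standard part of organoid medium, NRG1 is made by stromal cells, and the receptors lie on the epithelium that both ligands reach.

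The counts are of unique molecular identifiers (UMIs), tags that mark each captured RNA molecule so that PCR copies are counted once, read at the 3′ end of polyadenylated RNA. The EGF libraries held 1714515 to 1891243 UMIs and the NRG1 libraries 1480856 to 1883812, with 12553 to 13024 genes detected in each library. The libraries of replicates 1 and 3 were sequenced together in 1 pool and those of replicate 2 in another. The 12 epithelial identity markers were all detected and made up 1.9% ± 0.0182 (SD, n = 3) of the UMIs in the EGF group and 2.01% ± 0.0812 in the NRG1 group. Markers of other cell types were close to 0. Of 29 immune markers 18 had no count, among them *Cd3e* and *C1qb*, and the rest summed to 20 to 25 counts per EGF library and 16 to 23 per NRG1 library. Of 22 fibroblast and muscle markers 7 had no count, and the sums were 39 to 51 and 30 to 69. Of 21 endothelial, glial and blood markers 11 had no count, and the sums were 32 to 56 and 57 to 66. The nuclear RNA *Malat1* took 0.0327% ± 0.00672 with EGF and 0.0311% ± 0.00626 with NRG1 (exact two-sided permutation test, p = 0.800, n = 3 and 3). Mitochondrial RNA took 1.09% ± 0.108 and 0.660% ± 0.0669, with no overlap between the groups (exact permutation test, p = 0.10, the smallest that 3 against 3 libraries allow), and its part in the other results was not tested. NRG1 replicate 1 stood apart from the other NRG1 libraries. It was the highest NRG1 library in 355 of the 589 genes higher with NRG1, against 132 for replicate 2 and 102 for replicate 3.

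Of the 12617 genes, 1170 (9.27%) differed between NRG1 and EGF by edgeR's quasi-likelihood test at a Benjamini-Hochberg adjusted p under 0.1, 589 (4.67%) higher and 581 (4.60%) lower with NRG1. An unadjusted p under 0.05 was reached by 2377 genes. The median size of the log2 fold change among the 1170 was 0.58, and a log2 change of 1 or more was seen in 95 of the higher and 129 of the lower genes. The test holds the replicate number as a block, since libraries with the same number deviated together. Without the block 673 genes passed, 332 higher and 341 lower, all of them among the 1170. The count also fell to 624 without EGF replicate 2 and to 600 without NRG1 replicate 2, and the higher genes alone to 364 without EGF replicate 1. The groups did not overlap in 1221 genes that were higher (9.68%) and 1373 that were lower (10.9%) in all 3 NRG1 libraries. Levels below are TMM-normalized UMI counts, in the order of replicates 1, 2 and 3. They are scaled for library size within each experiment, so levels of different experiments are not on the same scale. Fold changes are log2 values for NRG1 minus EGF ± SE.

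**Figure D1:**
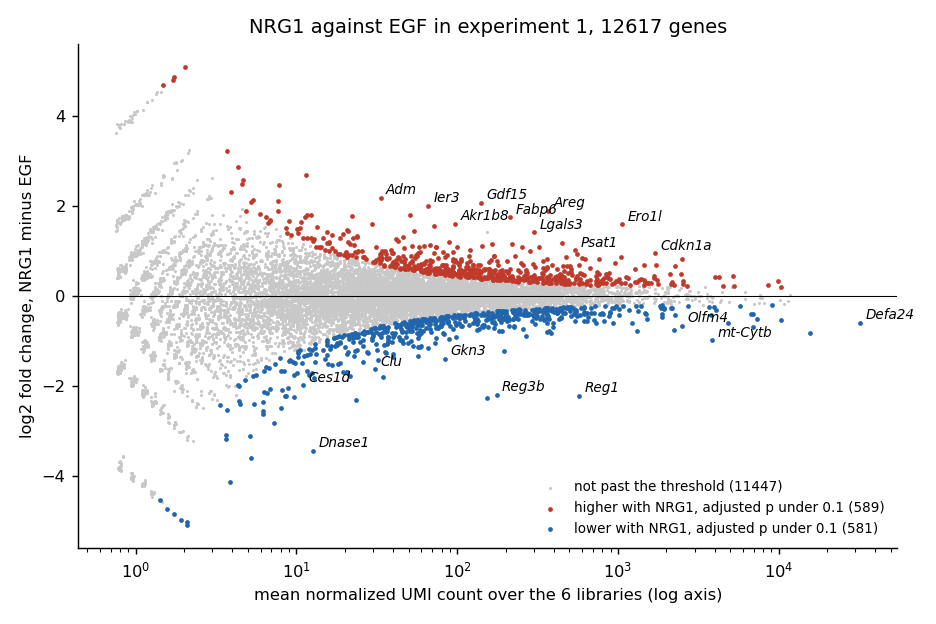
Log2 fold change of NRG1 minus EGF (vertical axis) against the mean normalized UMI count over the 6 libraries (horizontal log axis) for 12617 genes, 1 point per gene. The 589 genes higher and 581 lower at an adjusted p under 0.1 are coloured, and *Adm*, *Gdf15*, *Areg* and *Ero1l* lie far above 0 while *Reg1*, *Reg3b* and *Dnase1* lie far below.

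Among genes whose mean count was 10 or more, the 12 that rose most were *Ccdc88b*, *Adm*, *Gdf15*, *Ier3*, *Areg*, *Alox12b*, *3930402G23Rik*, *Ndufa4l2*, *Oasl1*, *Fabp6*, *Plk3* and *Antxr2*, with log2 fold changes from 2.68 down to 1.64. They held a vasoactive peptide (*Adm*, adrenomedullin), a stress-induced cytokine (*Gdf15*), an immediate early gene (*Ier3*), a ligand of the EGF receptor (*Areg*), an epidermal lipoxygenase (*Alox12b*) and the ileal bile acid-binding protein (*Fabp6*). *Ccdc88b* led by fold but from a very low level, at 4.98, 0.966 and 2.75 with EGF against 33.1, 22.5 and 3.81 with NRG1 (2.68 ± 0.54, edgeR adjusted p = 4.76e-05). Its groups overlapped, since NRG1 replicate 3 lay below EGF replicate 1, and it did not pass without the block (edgeR adjusted p = 0.155). *Adm* was at 14, 9.66 and 11.9 with EGF and at 79.2, 54.0 and 32.4 with NRG1 (2.17 ± 0.30, edgeR adjusted p = 1.29e-10). Each NRG1 library exceeded each EGF library, and NRG1 replicate 1 was more than 2 times as high as NRG1 replicate 3. *Gdf15* showed the same order, with 65.8, 37.7 and 52.3 against 390, 164 and 134 (2.06 ± 0.16, edgeR adjusted p = 1.62e-33), but it did not pass without the block (edgeR adjusted p = 0.129). *Alox12b* was also lost there (edgeR adjusted p = 0.234). *Plk3* did not pass without EGF replicate 1 (edgeR adjusted p = 0.197), *Ndufa4l2* without NRG1 replicate 1 (0.151), and *Antxr2* without NRG1 replicate 1 (0.125), EGF replicate 2 (0.367) or NRG1 replicate 2 (0.134).

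The 12 largest falls were *Dnase1*, *Ctrb1*, *Reg3a*, *Reg1*, *Reg3b*, *Ces1d*, *Hnf1aos1*, *Agr3*, *Rec8*, *Apoa2*, *Pigm* and *Chrm3*, from −3.45 to −1.71. *Dnase1*, which encodes a secreted nuclease, was at 18.9, 29.0 and 21.1 with EGF and at 7.09, 0 and 0 with NRG1 (−3.45 ± 0.51, edgeR adjusted p = 2.17e-09). The NRG1 values rest on 6 UMIs in replicate 1, so the size of this fold depends on few molecules. *Ces1d*, a carboxylesterase, went from 16.9, 20.3 and 15.6 to 5.91, 4.50 and 2.85, and *Rec8*, a cohesin subunit of meiosis, from 26.9, 39.6 and 34.0 to 9.46, 9.90 and 9.52. Neither gene had groups that overlapped. *Chrm3* did not pass without NRG1 replicate 1 (edgeR adjusted p = 0.152). The 3′ end of *Hnf1aos1* shares 16.7% of its 61-nucleotide windows with *Hnf1aos2*, so its count is uncertain.

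Among the EGF family ligands *Areg* rose most. Of 6 ligand genes that could be tested, 3 were higher (*Areg*, *Ereg* and *Btc*), none was lower and the median was 0.61, against −0.02 over all genes tested. With DESeq2 1 was higher. *Areg*, which encodes amphiregulin (chr5:91139599-91148432, GRCm38), was at 154, 155 and 147 with EGF and at 851, 524 and 380 with NRG1. The 3 EGF libraries lay close together and every NRG1 library was far above them (1.89 ± 0.11, edgeR adjusted p = 2.30e-58). *Ereg*, which encodes epiregulin, had 3 UMIs in the EGF libraries, all in replicate 1, and 23 in the NRG1 libraries, a ratio of 8.10 after correction for depth (exact 95% interval 2.45 to 42.1, for counting error only). Its edgeR adjusted p of 0.0172 became 0.227 or 0.165 without replicate 2 or 3 of EGF and 0.241 without replicate 3 of NRG1. *Btc*, the betacellulin gene, was at 94.7, 101 and 67.9 against 170, 128 and 94.2, with groups that overlapped (0.55 ± 0.16, edgeR adjusted p = 0.0128). It no longer passed without EGF replicate 1 (0.175) or NRG1 replicate 1 (0.270), nor with DESeq2 (DESeq2 adjusted p = 0.103). *Hbegf* was high in NRG1 replicate 1 alone, at 147 against 74.7 and 57.1 in the others and 70.8, 72.5 and 83.5 with EGF (edgeR adjusted p = 0.569).

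Among 10 genes of the receptors and their inhibitors, 1 was higher and 9 did not pass, and none passed without EGF replicate 1. *Errfi1*, which encodes MIG6, an inhibitor of EGFR and ERBB2 kinases, rose from 59.8, 59.0 and 67.0 to 114, 88.2 and 95.2 (0.67 ± 0.18, edgeR adjusted p = 0.00530, and 0.117 without EGF replicate 1). *Erbb3*, the receptor gene for NRG1, was at 157, 193 and 148 with EGF and at 153, 153 and 128 with NRG1 (edgeR adjusted p = 0.448). *Egfr* was low, at 22.9, 22.2 and 21.1 against 14.2, 22.5 and 16.2 (0.690), and *Erbb2* was at 44.9, 44.5 and 42.2 against 47.3, 36.0 and 39.0 (0.863). At these levels the standard errors of 0.33 for *Egfr* and 0.23 for *Erbb2* leave a moderate change undetectable.

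Genes that report on ERK and AP-1 moved in part. Of 19 ERK feedback and early genes 2 rose, *Ier3* and *Egr1*, none fell and 17 did not pass, with a median of 0.38. Over all genes tested 4.67% rose and 4.60% fell. *Ier3* was at 27.9, 27.1 and 22 with EGF and 162, 82.8 and 73.3 with NRG1 (1.99 ± 0.21, edgeR adjusted p = 1.05e-17), and *Egr1* at 42.9, 38.7 and 56.0 against 150, 80.1 and 72.3 (1.08 ± 0.19, edgeR adjusted p = 2.15e-06). For both genes all 3 NRG1 libraries lay above the EGF libraries. The AP-1 subunits went in opposite directions. *Junb* was at 105, 82.1 and 111 against 365, 197 and 132 (1.15 ± 0.14, edgeR adjusted p = 1.90e-13), *Fos* at 12.0, 8.70 and 19.3 against 46.1, 36.9 and 20.0 (1.32 ± 0.32, 0.00139), and *Jun* at 184, 139 and 176 against 114, 83.7 and 99.0 (−0.76 ± 0.15, 1.68e-05). *Junb* and *Fos* were thus higher and *Jun* lower in every NRG1 library. For *Fos* the margin was small, with NRG1 replicate 3 at 20.0 and EGF replicate 3 at 19.3. *Fos* did not pass without EGF replicate 1 (edgeR adjusted p = 0.163) or NRG1 replicate 2 (0.140), and *Junb* did not pass without the block (0.205).

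A group of stress and amino acid genes rose together. ATF4 is a transcription factor whose protein is made when translation initiation is restrained through eIF2α, and it raises genes for serine and asparagine synthesis, amino acid import and one-carbon metabolism. Of 29 tested genes of this kind, 23 rose with NRG1, none fell and 6 did not pass, with a median of 0.81. In 22 of the 29 all NRG1 libraries exceeded all EGF libraries, against 9.68% of all genes tested. Like every gene list here, this one was written with earlier results of these data known. Its counts are therefore no independent evidence of a direction. The count of higher genes was 20 without the block, and 19 to 22 when any 1 of the 6 libraries was left out. The median of the list, relative to the mean of the EGF libraries, was 0.85, 0.77 and 0.71 in the NRG1 libraries and 0.12, −0.13 and −0.06 in the EGF libraries, and NRG1 replicate 1 was the highest NRG1 library for 13 of the 23.

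Serine synthesis from a glycolytic intermediate takes 3 enzymes in turn, PHGDH, PSAT1 and PSPH, and the genes of all 3 rose. *Phgdh* was at 99.7, 83.1 and 87.2 with EGF and 215, 213 and 156 with NRG1 (1.10 ± 0.14, edgeR adjusted p = 6.01e-12), though 35% of its 3′ windows are shared with pseudogenes. *Psat1* (chr19:15904678-15947337, GRCm38) was at 388, 329 and 366 against 759, 699 and 715 (1.01 ± 0.10, edgeR adjusted p = 5.34e-23). *Psph* was at 246, 178 and 197 against 482, 422 and 405 (1.09 ± 0.11). The NRG1 libraries agreed closely here, and the lowest of them was above the highest EGF library for each of the 3 genes. The mitochondrial folate enzyme genes *Shmt2*, at 143, 111 and 139 against 236, 240 and 191 (0.77 ± 0.13), and *Mthfd2*, at 446, 410 and 430 against 812, 729 and 741 (0.83 ± 0.09), also rose. *Asns*, the asparagine synthetase gene, went from 518, 411 and 438 to 905, 790 and 703 (0.81 ± 0.09, edgeR adjusted p = 1.10e-15). Its adjusted p was 0.146 when the sequencing pool replaced the replicate number. *Pck2*, a mitochondrial kinase that makes phosphoenolpyruvate, rose from 440, 389 and 321 to 867, 703 and 603 (0.92 ± 0.09).

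*Atf4* itself was at 303, 266 and 284 with EGF and 434, 429 and 452 with NRG1 (0.63 ± 0.10, edgeR adjusted p = 1.99e-07). *Ddit3*, which encodes the stress factor CHOP, was at 66.8, 38.7 and 70.7 against 149, 88.2 and 87.5 (0.86 ± 0.18). *Chac1*, whose enzyme degrades glutathione, went from 44.9, 37.7 and 45.0 to 84.0, 83.7 and 111 (1.13 ± 0.20), and *Trib3*, a pseudokinase that restrains ATF4, from 67.8, 44.5 and 53.2 to 87.5, 116 and 88.5 (0.83 ± 0.18, with an edgeR adjusted p of 0.117 without EGF replicate 2). None of these genes had overlapping groups. *Eif4ebp1*, a translation repressor that is also an ATF4 target, was the most abundant of the named genes of this list, at 755, 799 and 703 against 1384.6, 1363.9 and 1309.4 (0.85 ± 0.09, edgeR adjusted p = 4.01e-20). *Slc7a11*, the cystine importer, was at 41.9, 22.2 and 23.9 against 101, 70.2 and 65.7 (1.43 ± 0.22). *Atf3* was not separated from EGF, at 48.8, 42.5 and 28.5 against 42.6, 54.9 and 57.1 (edgeR adjusted p = 0.344). Genes for folding in the endoplasmic reticulum, which answer to other branches of the stress response, mostly did not pass. Of 26, 3 were higher (6 without NRG1 replicate 1) and none was lower, against 4.67% and 4.60% over all genes tested. The median of these 26 was 0.09.

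The letters TGATGNAA are the core of the composite element that ATF4 and C/EBP proteins bind. They were searched on both strands of RefSeq promoter windows (GRCm38.p6, 250 bases before to 50 after a gene's start), which 25 of the 29 list members have. The letters occurred in the windows of 9 of the 25 (36%), in 2.65% of the 9803 tested genes with a window and in 3.97% of all 32851 windows. The list was drawn up around ATF4, so its larger share may follow from the choice of members and is no independent evidence. The matches of 6 genes that rose are shown because they let the element be compared between them, each read 5′ to 3′ along the strand that carries the letters, with the matched letters in capitals.
*Asns*, chr6:7693215-7693242: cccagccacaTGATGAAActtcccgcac
*Pck2*, chr14:55540153-55540180: tgtaagatacTGATGTAActttgaaggc
*Trib3*, chr2:152344029-152344056: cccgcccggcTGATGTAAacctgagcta
*Chac1*, chr2:119351039-119351066: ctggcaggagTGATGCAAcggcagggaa
*Nupr1*, chr7:126625563-126625590: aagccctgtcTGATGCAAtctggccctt
*Slc7a11*, chr3:50443643-50443670: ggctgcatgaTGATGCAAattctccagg
The base at the N of the pattern was A in *Asns*, T in *Pck2* and *Trib3*, and C in *Chac1*, *Nupr1* and *Slc7a11*. *Slc7a11* carried a further match on the other strand, chr3:50443662-50443689, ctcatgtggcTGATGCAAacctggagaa. *Atf3* had the letters too, although it did not pass the test. A match describes the sequence and does not show that a factor was bound. *Nupr1*, a small stress-induced nuclear protein that also marks Paneth cells, was at 327, 395 and 338 with EGF and 549, 514 and 388 with NRG1 (0.44 ± 0.10, edgeR adjusted p = 0.000677, and 0.229 without EGF replicate 1), with NRG1 replicate 3 within the EGF range.

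**Figure D2:**
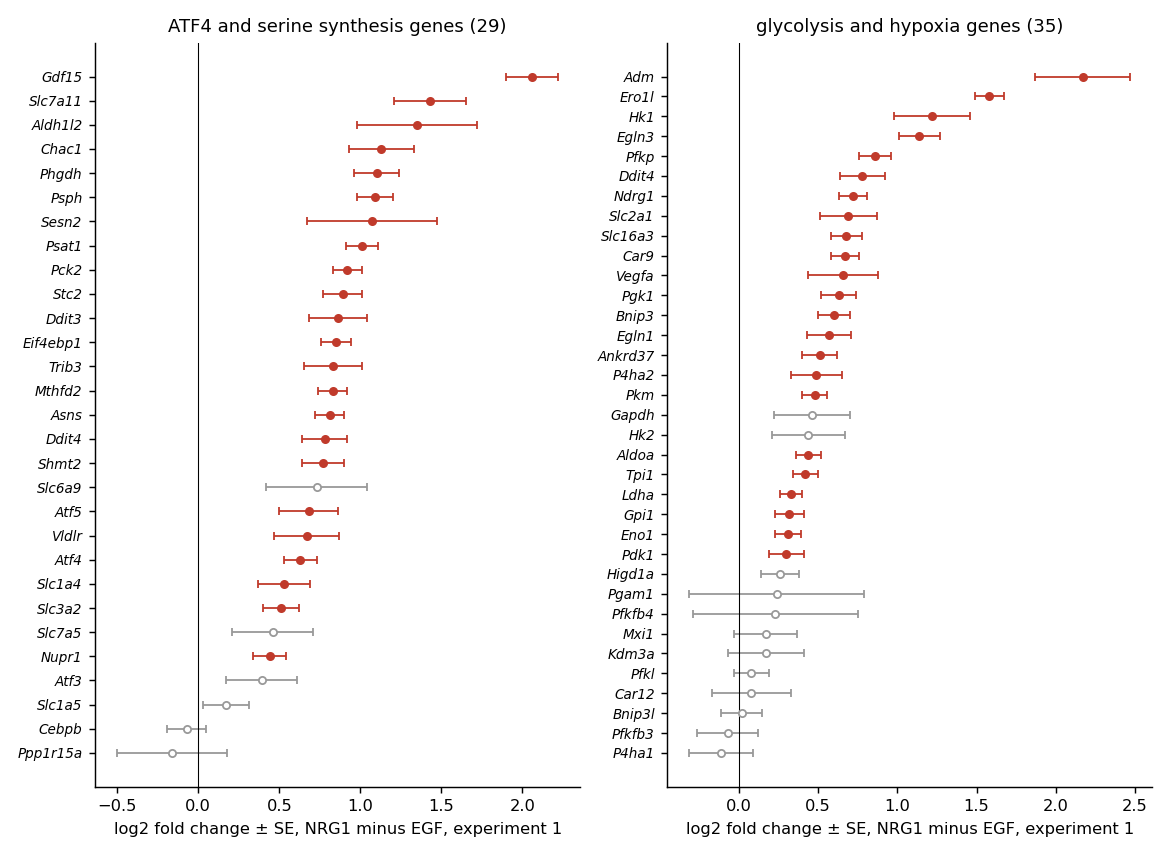
Log2 fold change ± SE of NRG1 minus EGF in experiment 1 for the 29 tested ATF4 and serine synthesis genes (left) and the 35 tested glycolysis and hypoxia genes (right). Filled red points passed at an adjusted p under 0.1 (23 in each list) and open grey points did not, and every passing gene lies above 0.

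Glycolysis and hypoxia genes were also higher. Of 35 tested genes 23 rose, none fell and 12 did not pass, with a median of 0.46, and in 19 the groups did not overlap. With no block 15 rose, and without any 1 library 19 to 23. NRG1 replicate 1 was the highest NRG1 library in 22 of the 23, and the list's median was 0.67, 0.49 and 0.30 in the 3 NRG1 libraries. *Ero1l*, an oxidase of the endoplasmic reticulum induced by hypoxia (chr14:45283087-45318771, GRCm38), was at 570, 492 and 486 with EGF and 2399.1, 1432.3 and 1006.8 with NRG1 (1.58 ± 0.09, edgeR adjusted p = 5.85e-59). The EGF libraries lay close together, whereas the NRG1 libraries spread over more than 2 times. With only the 6 libraries and no block it did not pass (edgeR adjusted p = 0.141). *Egln3*, a prolyl hydroxylase that acts on HIF, was at 171, 111 and 125 against 390, 282 and 228 (1.14 ± 0.13, edgeR adjusted p = 9.35e-17). *Pfkp*, a phosphofructokinase isoform, was at 424, 299 and 298 against 718, 580 and 544 (0.86 ± 0.10), and *Ndrg1*, a hypoxia-induced growth regulator, at 745, 773 and 642 against 1418.9, 1259.4 and 922 (0.72 ± 0.09). All NRG1 libraries exceeded all EGF libraries for these 3 genes. *Car9*, the carbonic anhydrase often used to mark hypoxia, was at 517, 446 and 363 against 869, 691 and 564 (0.67 ± 0.09, edgeR adjusted p = 1.75e-10), but did not pass without the block (0.424). *Ldha*, the lactate dehydrogenase subunit rose by less, from 8751.8, 9718.3 and 7834.3 to 11674.1, 11020.7 and 10353.3 (0.33 ± 0.07, edgeR adjusted p = 0.000457). *Pdk1*, a kinase that holds pyruvate back from the mitochondria, passed narrowly (0.30 ± 0.11, edgeR adjusted p = 0.0737). It did not pass in 8 of the alternatives run, among them without EGF replicate 1 (0.494), NRG1 replicate 1 (0.265), NRG1 replicate 2 (0.258) or EGF replicate 3 (0.212).

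The hypoxia factor HIF binds the letters ACGTG. They were found on at least 1 strand of the windows of 23 of the 33 list members with a RefSeq promoter (69.7%), against 29.5% of tested genes and 19.6% of all windows. The list was drawn up around glycolysis and hypoxia, so its larger share may follow from the choice of members and is no independent evidence. The letters are short and overlap E-boxes of the form CACGTG. The *Ldha* promoter is shown since it carries them at several places near the start, and these 2 copies are read along the gene's strand with the matched letters in capitals.
*Ldha*, chr7:46845650-46845674: gtcgcagcacACGTGgagccactct
*Ldha*, chr7:46845747-46845771: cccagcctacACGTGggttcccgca
In both copies the base before the match is C, so each forms the E-box CACGTG. That sequence reads the same on either strand, which gives the further match that overlaps each copy on the opposite strand. Another match on the opposite strand, chr7:46845760-46845784, has G before it and is not part of CACGTG. No binding was measured.

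Mitochondrially encoded mRNAs were lower with NRG1. Of 11 tested, 5 fell, none rose and 6 did not pass, with a median of −0.60, and the 5 encode subunits of complex I and complex III. *mt-Cytb* (chromosome M, 14145 to 15288) was at 4921.6, 6100.0 and 4383.9 with EGF and 2347.1, 2572.0 and 2765.3 with NRG1 (−0.99 ± 0.08, edgeR adjusted p = 1.18e-33). *mt-Nd1* was at 8622.3, 9437.1 and 7637.8 against 4879.9, 5208.8 and 5894.1 (−0.69 ± 0.08), and *mt-Nd4* at 2927.2, 2823.9 and 2717.9 against 1624.7, 1563.7 and 1830.9 (−0.76 ± 0.08). The groups were well apart for each. *mt-Nd2* (−0.60) and *mt-Nd5* (−0.39) fell as well, the first with 15.7% of its 3′ windows shared with a pseudogene and the second not passing without EGF replicate 2 (edgeR adjusted p = 0.135) or NRG1 replicate 2 (0.315). *mt-Co1*, at 340, 305 and 269 against 329, 302 and 238, did not pass, and 95.2% of its 3′ windows are shared with other genes, so most of its reads cannot be placed. The nuclear genes of oxidative phosphorylation did not move as a group. Of 80, 4 were higher and 5 lower (4.67% and 4.60% over all genes tested), with a median of −0.02. None of them passed without the block, and without any 1 library 1 to 4 were higher and 0 to 9 lower.

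Genes known from fetal gut and from regenerating epithelium were mostly higher. Of 27 tested, 20 rose, *Clu* fell and 6 did not pass, with a median of 0.80, and 13 to 17 rose when any 1 library was left out. Without the block 13 rose, and likewise without EGF replicate 1 or NRG1 replicate 2, and 10 rose with DESeq2. The list holds genes that the study chose on these libraries, so the count is no independent evidence of a direction. The median in the NRG1 libraries was 1.04, 0.68 and 0.52, so that replicate 1 was again the highest. *Sprr1a*, a cornified envelope gene, was at 66.8, 35.8 and 58.7 with EGF and 175, 117 and 83.7 with NRG1 (1.18 ± 0.18, edgeR adjusted p = 7.69e-09), with no overlap. *Ly6a*, which encodes Sca-1, was at 53.8, 30.9 and 32.1 against 99.3, 107 and 50.4 (1.11 ± 0.21), and here NRG1 replicate 3 lay below EGF replicate 1. *Anxa2*, a membrane-binding annexin, was at 1838.9, 1879.7 and 1674.2 against 3820.4, 3117.5 and 2694.9 (0.82 ± 0.08, edgeR adjusted p = 5.77e-22). *Sprr2a3*, at 177, 181 and 131 against 390, 415 and 238 (1.08 ± 0.12), rose too, with 57.2% of its 3′ windows shared with other *Sprr2* genes. *Krt19*, a keratin of simple epithelia, rose from 3744.5, 3276.2 and 3381.5 to 5182.6, 4524.6 and 4181.3 (0.41 ± 0.08). *Anxa2*, *Sprr2a3* and *Krt19* had all NRG1 libraries above all EGF libraries. *F3*, the tissue factor gene, had 5.98, 12.6 and 13.8 against 48.5, 27.9 and 16.2 (1.43 ± 0.35, edgeR adjusted p = 0.00164), and without NRG1 replicate 1 it did not pass (0.338), nor without EGF replicate 1 (0.229). *Ly6d*, a relative of *Ly6a* at a very low level (4.98, 2.90 and 7.34 against 9.46, 24.3 and 11.4), did not pass without EGF replicate 2 (edgeR adjusted p = 0.725) or NRG1 replicate 2 (0.381). *Ly6e* and *Ly6g6e* passed at edgeR adjusted p = 0.0182 and 0.0676. *Ly6e* was lost without either library of replicate 1 (0.381 for EGF, 0.130 for NRG1) or replicate 2 (0.226 and 0.182), and *Ly6g6e* without any 1 library (0.106 to 0.313).

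*Clu*, which encodes clusterin and marks rare revival stem cells after injury, went against the rest of its list. It was at 42.9, 51.2 and 45.9 with EGF and 14.2, 16.2 and 14.3 with NRG1 (−1.64 ± 0.28, edgeR adjusted p = 3.76e-07). The groups lay far apart with little spread in either, and the gene passed in all the alternatives run.

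**Figure D3:**
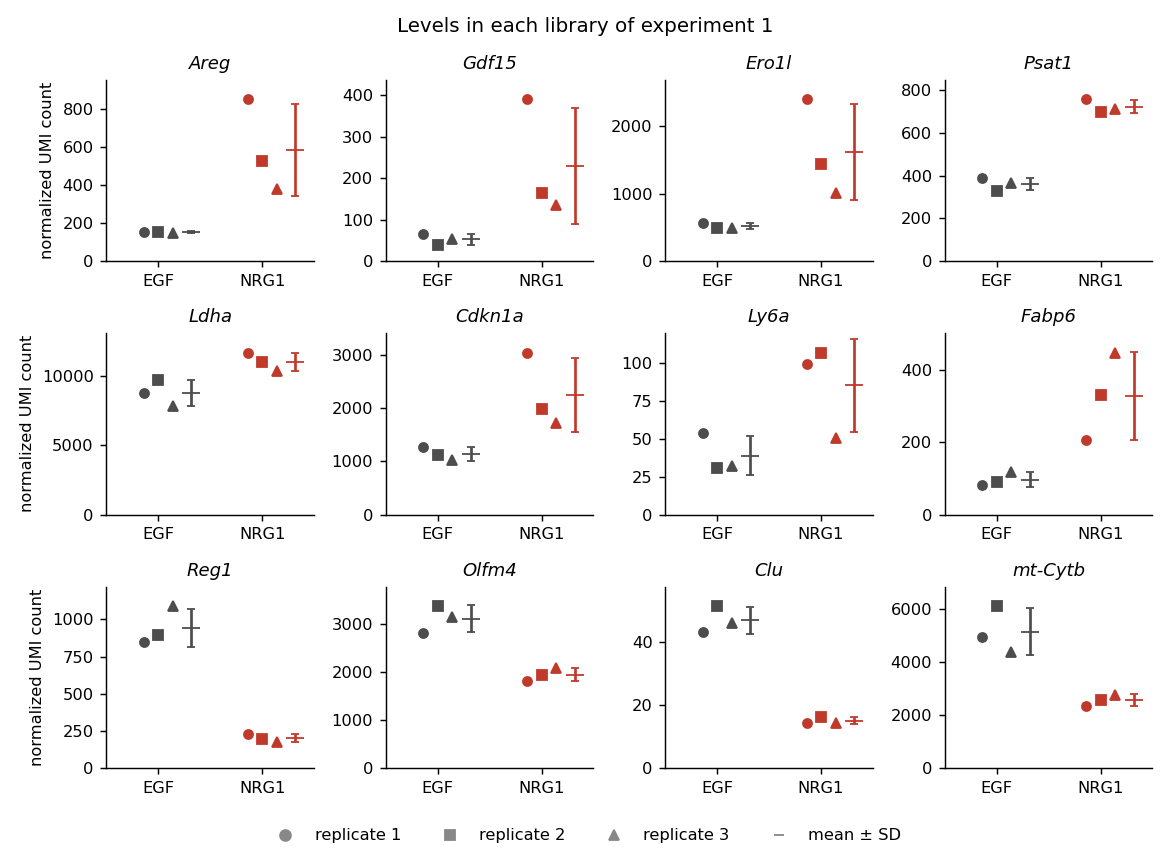
Normalized UMI counts of 12 genes in each EGF (grey) and NRG1 (red) library of experiment 1, with the mean and SD (n = 3) beside them and vertical axes from 0. *Areg*, *Gdf15*, *Ero1l* and *Cdkn1a* are highest in NRG1 replicate 1, *Psat1* is nearly level across the NRG1 libraries, and *Reg1*, *Olfm4*, *Clu* and *mt-Cytb* are lower in every NRG1 library.

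Genes of crypt stem cells were lower. These cells at the crypt base depend on Wnt signals, which R-spondin1 strengthens in culture. Of 24 stem cell genes 13 fell, 1 rose and 10 did not pass, with a median of −0.47, and of 16 Wnt targets 7 fell (4 with DESeq2) and 1 rose, with a median of −0.53. The lists share members, and the gene that rose was *Cd44* in both (0.51 ± 0.18, edgeR adjusted p = 0.0610), which did not pass in 9 of the alternatives run, among them without replicate 2 of EGF (0.257) or NRG1 (0.232) and without replicate 3 of EGF (0.241) or NRG1 (0.189). In bulk RNA, fewer cells of a type and less RNA per cell cannot be told apart. *Olfm4*, an abundant gene of stem and early progenitor cells, was at 2800.7, 3362.2 and 3130.0 with EGF and 1804.4, 1931.9 and 2080.2 with NRG1 (−0.67 ± 0.08, edgeR adjusted p = 6.53e-15). *Lgr5*, the R-spondin receptor that defines the cells, was at 196, 187 and 181 against 150, 110 and 146 (−0.49 ± 0.13, edgeR adjusted p = 0.00763). Both genes were lower in every NRG1 library, but *Lgr5* did not pass without EGF replicate 2 (0.129) or NRG1 replicate 2 (0.320), nor with DESeq2 (DESeq2 adjusted p = 0.104). *Axin2*, a direct Wnt target, was at 80.7, 66.7 and 79.9 against 35.5, 40.5 and 46.6 (−0.88 ± 0.20), and *Ascl2*, the transcription factor of stem cell identity, at 185, 142 and 206 against 101, 117 and 110 (−0.68 ± 0.14). The larger falls were in *Gkn3*, at 117, 130 and 117 against 40.2, 41.4 and 56.1 (−1.40 ± 0.18), and *Clca3b*, at 251, 284 and 290 against 74.5, 119 and 160 (−1.22 ± 0.13). Proliferation genes did not fall as a group, with 4 of 38 higher (2 without EGF replicate 2), 1 lower and a median of 0.02. Over all genes tested 4.67% were higher and 4.60% lower. All NRG1 libraries were above all EGF libraries in 8 of the 38 and below them in 3, against 9.68% and 10.9% of all genes tested.

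Genes of Paneth cells, which release antimicrobial peptides at the crypt base, were mostly lower. Of 27 Paneth cell genes 16 were lower, 10 did not pass and the 1 higher gene was *Nupr1*, with a median of −0.41. Without the block 12 were lower. *Defa24*, an alpha-defensin and the most abundant gene that passed, was at 37120.2, 37757.0 and 41021.8 with EGF and 29486.2, 23534.9 and 23342.4 with NRG1 (−0.61 ± 0.07, edgeR adjusted p = 3.01e-14). *Lyz1*, the Paneth cell lysozyme, was at 7378.4, 7797.1 and 7864.5 against 6665.4, 5891.2 and 4904.5 (−0.41 ± 0.08), and *Itln1*, an intelectin, at 11144.8, 13071.8 and 12764.3 against 9906.4, 8411.8 and 7223.5 (−0.54 ± 0.07). All NRG1 libraries were below the EGF libraries, and NRG1 replicate 1 was the closest to them. Of the 3′ windows 18.1% of *Defa24* and 11.4% of *Lyz1* are shared with family members. Other alpha-defensins of the list share more, 91.7% for *Defa17*, 89.4% for *Defa3*, 65.9% for *Defa21*, 65.7% for *Defa22* and 40.5% for *Defa30*. The lower genes were thus not all measured separately. Of 22 goblet cell genes 4 fell and none rose (median −0.17), and of 26 enteroendocrine genes 3 rose and 2 fell (median 0.10). The shares over all genes tested were 4.67% higher and 4.60% lower. Without EGF replicate 3 2 goblet cell genes fell. None of the enteroendocrine genes rose without EGF replicate 1, and 1 rose without the block or without NRG1 replicate 1, EGF replicate 2 or NRG1 replicate 2.

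Genes of zymogen and REG type secretion, small proteins that exocrine and injured gut cells release, were mostly lower. The members of this list were chosen with their fall under NRG1 known, so its count and median describe the choice and are no independent evidence of a direction. Of 15 tested 11 fell, none rose and 4 did not pass, with a median of −1.43. In 12 all NRG1 libraries were below all EGF libraries, against 10.9% of all genes tested. The count of genes that fell was 11 without the block and 10 to 12 without any 1 library. *Reg1* (chr6:78422711-78428667, GRCm38) was at 848, 895 and 1089.5 with EGF and 231, 197 and 177 with NRG1 (−2.23 ± 0.10, edgeR adjusted p = 3.88e-106). *Reg3b* was at 228, 328 and 310 against 65.0, 52.2 and 74.2 (−2.20 ± 0.14), and *Reg3a* at 233, 273 and 260 against 50.8, 60.3 and 46.6 (−2.28 ± 0.15). For the 3 REG genes the groups lay far apart, and the NRG1 libraries differed little among themselves. *Reg3g*, their close relative, fell by less, from 287, 303 and 272 to 219, 213 and 216 (−0.41 ± 0.11, edgeR adjusted p = 0.00819, and 0.237 without NRG1 replicate 2). *Ctrb1*, a chymotrypsinogen, went from 43.9, 35.8 and 37.6 to 11.8, 8.10 and 3.81 (−2.33 ± 0.34), and *Spink1*, a trypsin inhibitor, from 304, 383 and 356 to 153, 176 and 240 (−0.89 ± 0.11). *Mt1*, a metallothionein outside these lists and among the most abundant genes that passed, fell from 18503.3, 19147.6 and 22695.0 to 10060.1, 11557.3 and 12641.8 (−0.82 ± 0.07, edgeR adjusted p = 4.53e-25).

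**Figure D4:**
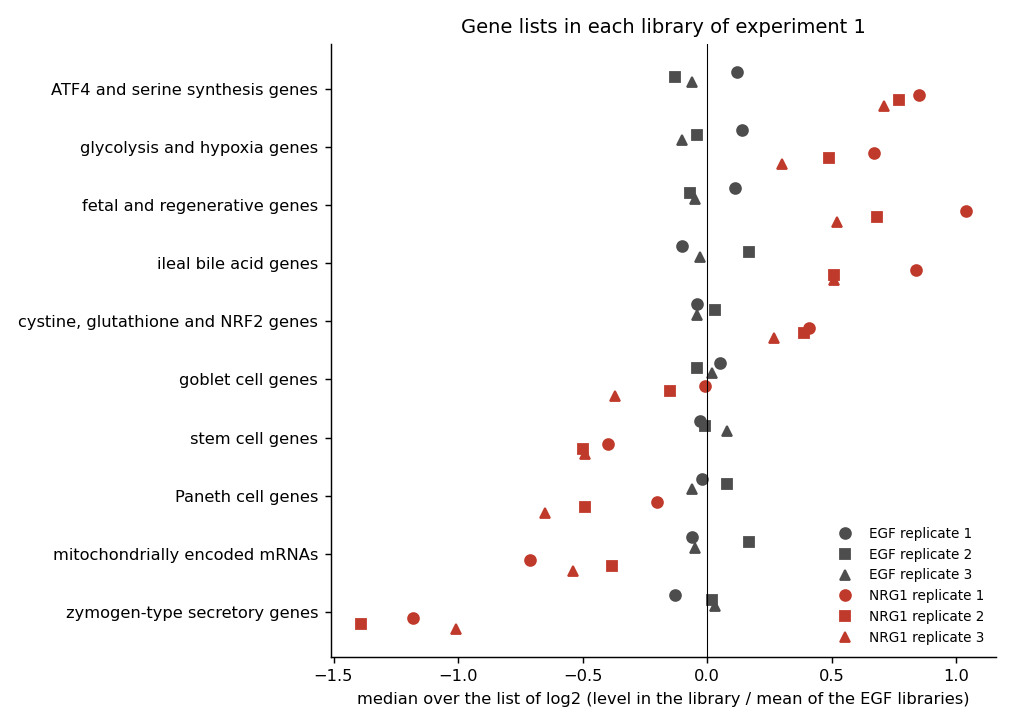
Median over each gene list of the log2 ratio between a library and the mean of the 3 EGF libraries (horizontal axis), 1 point per library, with EGF in grey and NRG1 in red. The NRG1 libraries lie at 0.71 to 0.85 for the ATF4 and serine synthesis genes, at 0.52 to 1.04 for the fetal and regenerative genes and at −1.39 to −1.01 for the zymogen-type secretory genes.

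Glutathione genes rose to a moderate extent. Of 35 genes of cystine import, glutathione and the NRF2 response, a program against oxidants and electrophiles, 15 rose, *Akr1c19* fell and 19 did not pass, with a median of 0.40. This list was likewise written with earlier results of these data known, so its count is no independent evidence of a direction. *Akr1b8*, an aldo-keto reductase, was at 49.8, 40.6 and 49.6 with EGF and 216, 136 and 89.4 with NRG1 (1.60 ± 0.18, edgeR adjusted p = 2.21e-16). *Gsr*, glutathione reductase, was at 279, 323 and 252 against 472, 422 and 373 (0.57 ± 0.10), and *Txnrd1*, thioredoxin reductase, at 479, 440 and 577 against 772, 592 and 741 (0.49 ± 0.09). These 3 genes had no overlap between the groups. *Gclc*, the catalytic subunit of the first step of glutathione synthesis, rose from 112, 125 and 152 to 231, 173 and 159 (0.51 ± 0.14, edgeR adjusted p = 0.00456), and did not pass without EGF replicate 1 (0.239) or NRG1 replicate 1 (0.318). Its partner *Gclm* was at 487, 506 and 463 against 676, 524 and 462 (edgeR adjusted p = 0.275), and passed in 1 of the 18 alternatives run. *Cbr3*, a carbonyl reductase, showed the spread of NRG1 libraries at its widest among these genes, at 57.8, 89.9 and 87.2 against 413, 168 and 108. Its NRG1 libraries were all above its EGF libraries, yet it did not pass (1.42 ± 0.61, edgeR adjusted p = 0.346). In 3 of the 18 alternatives run *Cbr3* did pass. Among 23 glutathione transferases 7 rose and 2 fell (4.67% and 4.60% over all genes tested), with a median of 0.11. NRG1 replicate 1 was the highest NRG1 library for all 7. Without EGF replicate 1 3 rose and 2 fell, without NRG1 replicate 1 3 rose and 4 fell, and 1 fell without replicate 3 of either ligand. *Gstm3* was at 583, 542 and 519 against 1156.4, 930 and 820 (0.81 ± 0.09, edgeR adjusted p = 1.13e-16). *Gstm1* was at 957, 977 and 1049.2 against 1698.0, 1237.8 and 1042.0 (0.39 ± 0.08), so that NRG1 replicate 3 lay within the EGF range. It shares 19.6% of its 3′ windows, mainly with *Gstm3*, and did not pass without EGF replicate 1 (0.189) or NRG1 replicate 1 (0.150), nor with DESeq2 (DESeq2 adjusted p = 0.224).

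Bile acid genes of the ileum were higher in part. Enterocytes of the distal small intestine take up bile acids through ASBT (*Slc10a2*), bind them with FABP6 and export them through OSTα and OSTβ. Of 9 genes 4 rose and none fell, with a median of 0.75. *Fabp6* (chr11:43596049-43601540, GRCm38) was at 81.7, 88.9 and 119 with EGF and 206, 331 and 448 with NRG1 (1.74 ± 0.13, edgeR adjusted p = 1.15e-34). Here NRG1 replicate 3 was the highest and NRG1 replicate 1 the lowest of the NRG1 libraries. *Slc10a2* was at 22.9, 30.0 and 21.1 against 44.9, 60.3 and 70.4 (1.25 ± 0.25, edgeR adjusted p = 3.43e-05), and *Slc51b*, the OSTβ gene, at 37.9, 41.6 and 31.2 against 87.5, 71.1 and 78.0 (1.09 ± 0.21, 1.86e-05). Both were higher in every NRG1 library. *Abcc3*, a basolateral exporter, passed (1.08 ± 0.28, edgeR adjusted p = 0.00287) but not without EGF replicate 1 (0.186) or NRG1 replicate 1 (0.335).

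Experiment 2, with another mouse and libraries of its own, gave a second measurement of the same contrast. *Malat1* took 0.170% to 0.171% of the UMIs in its NRG1 libraries and 0.0774% to 0.0844% in its EGF libraries. Its NRG1 libraries held 1311420 to 1480092 UMIs and its EGF libraries 1486253 to 1582696. The part of these differences in the results of experiment 2 was not tested. There 1066 of the 12617 genes passed (8.45%), 623 higher (4.94%) and 443 lower (3.51%). Of the 1170 genes of experiment 1, 918 (78.5%) had the same sign in experiment 2, against 59.8% of all genes tested. In both experiments 332 genes passed in the same direction, which is 28.4% of those of experiment 1 and 31.1% of those of experiment 2, and 21 passed in opposite directions. The difference between the fold changes, tested as an interaction over the 18 libraries, passed for 184 genes (1.46%), 93 lower (0.737%) and 91 higher (0.721%) in experiment 2. Without the block 96 differed, without EGF replicate 2 113 and without NRG1 replicate 2 102, and with a block within each experiment 307. Of the 1170 genes 117 were among the 184. Those that had risen in experiment 1 had a lower fold change in experiment 2 in 66 cases and a higher one in 7, and those that had fallen had a less negative one in 41 and a more negative one in 3. A choice by the result of experiment 1 favours such a pattern, so these counts are a description.

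The ATF4 and serine synthesis genes had 23 higher and none lower in experiment 1 but 7 higher and 1 lower in experiment 2, where the median was 0.12, and 13 of the 29 differed between the experiments, 12 of them with a lower value in experiment 2. *Psph* rose by 1.09 in experiment 1 and by 0.05 in experiment 2 (difference −1.02 ± 0.18, edgeR adjusted p = 5.68e-05), with levels in experiment 2 of 165 ± 13.0 with EGF and 171 ± 17.4 with NRG1 (SD, n = 3). *Phgdh*, *Mthfd2*, *Psat1* and *Eif4ebp1* also had lower values in experiment 2, at 0.05, 0.12, 0.26 and 0.21, and each difference passed. *Slc7a11* was the exception with a larger rise in experiment 2, 2.61 against 1.43 (edgeR adjusted p of the difference 0.0162). The glycolysis and hypoxia genes had 10 higher and 3 lower in experiment 2 (median 0.14), and 6 differed, all with a lower value there. *Ero1l* and *Adm* rose in both experiments, by 0.83 and 1.01 in experiment 2, and their differences did not pass (0.366 and 0.107).

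The mitochondrial mRNAs had no lower gene in experiment 2, where 2 were higher and the median was 0.15, and 6 of the 11 differed. *mt-Cytb* was at −0.99 in experiment 1 and −0.08 in experiment 2 (edgeR adjusted p of the difference 1.84e-07). Its EGF level in experiment 2 was 2630.1 ± 120, on the scale of that experiment. As a share of UMIs, mitochondrial RNA took 0.596% to 0.604% in the EGF libraries of experiment 2. The NRG1 libraries of that experiment were lower, at 0.565% to 0.578%, with no overlap. In the NRG1 libraries of experiment 1 mitochondrial RNA took 0.600% to 0.732%. *Lgals3*, the galectin-3 gene, rose from 160, 170 and 163 to 474, 431 and 414 in experiment 1 (1.41 ± 0.11, edgeR adjusted p = 1.40e-31), while it was at 329 ± 43.6 and 383 ± 38.8 in experiment 2 (0.23, edgeR adjusted p of the difference 1.63e-07). *Jun* (−0.76 and 0.60) and *Pdgfa*, a growth factor gene (−0.78 and 0.35), passed in opposite directions. Among the 8 AP-1 genes tested, 5 were higher and none was lower in experiment 2. *Clu* had few counts in experiment 2, 9.65 ± 2.7 with EGF and 11 ± 0.611 with NRG1, against −1.64 in experiment 1 (edgeR adjusted p of the difference 0.0461).

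The fetal and regenerative genes had 19 higher and none lower in experiment 2 with a median of 0.72, and 2 of 27 differed, *Areg* (1.01 in experiment 2, edgeR adjusted p of the difference 0.0142) and *Clu*. The zymogen-type genes had 8 lower with a median of −0.69, and *Dnase1* differed (0.0459). Of the Paneth cell genes 18 were lower (median −0.62), and *Defa24* fell by 0.61 and 0.62 in the 2 experiments. The difference passed for 4 of the 27 Paneth cell genes, 3 with a lower and 1 with a higher value in experiment 2. The bile acid genes had 5 higher (median 0.77), none of which differed. The stem cell genes had 4 lower in experiment 2 and 1 higher (median −0.29), and *Olfm4* fell by 0.39 there. The difference passed for 2 of the 24, both with a higher value in experiment 2. None of the 16 Wnt targets passed in experiment 2 (median −0.29), and the difference passed for 1 of them. The EGF level of *Olfm4* was 553 ± 19.9 in experiment 2 and 3097.6 ± 282 in experiment 1, each on the scale of its experiment. The glutathione list went the other way from the ATF4 list. In experiment 2, 23 of 35 rose (median 0.50), and 7 differed, 6 with a higher value in experiment 2, among them *Gclc* (1.60 against 0.51, edgeR adjusted p of the difference 4.32e-06) and *Gclm* (0.93 against 0.18, 0.000248). Of the glutathione transferases 14 rose in experiment 2, and *Gstm1* was at 1.28 there against 0.39 (1.12e-05). A difference that does not pass does not show that the responses were equal.

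**Figure D5:**
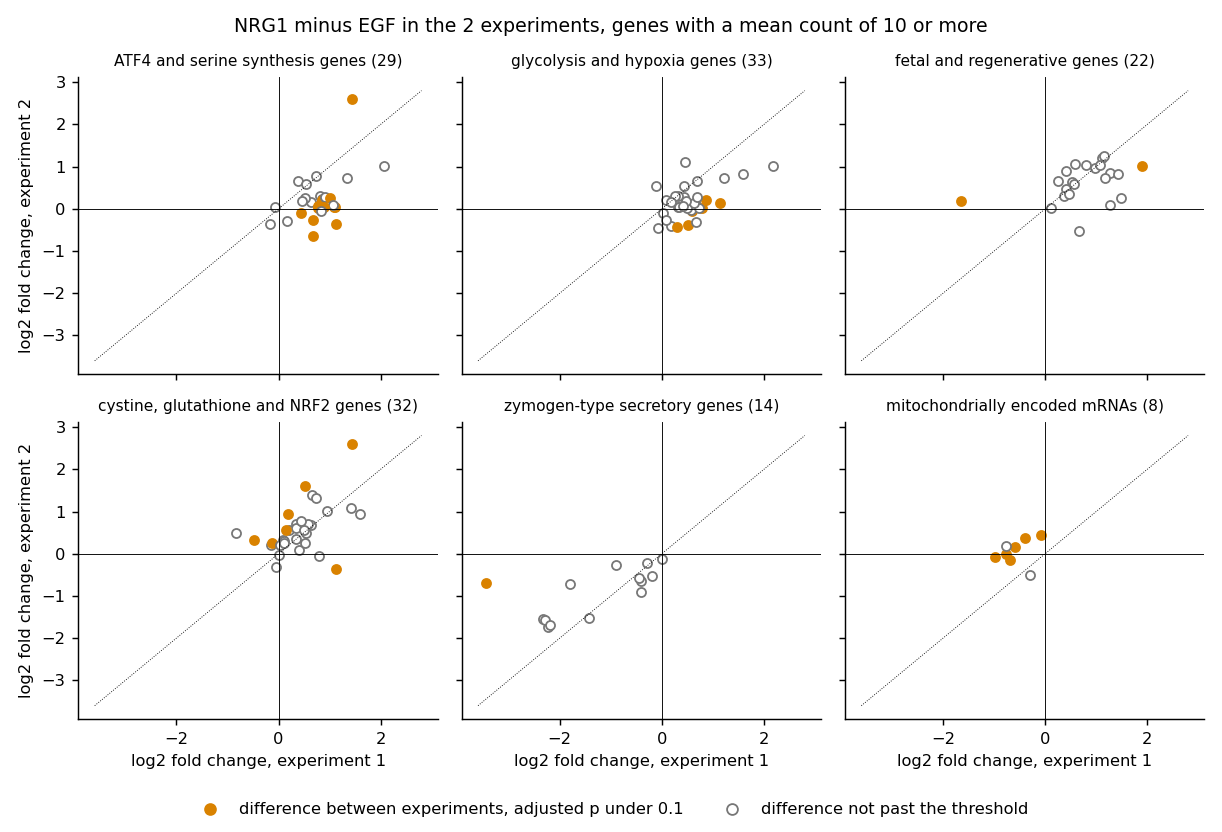
Log2 fold change of NRG1 minus EGF in experiment 1 (horizontal axis) and experiment 2 (vertical axis) for members of 6 lists with a mean count of at least 10, with a dotted line where both are equal and orange points where the difference passed. The difference passed for 13 ATF4, 6 glycolysis and 6 mitochondrial genes, against *Areg* and *Clu* among the fetal genes and *Dnase1* among the zymogen-type genes. It also passed for 7 of the 35 tested cystine, glutathione and NRF2 genes, 6 with a higher value in experiment 2.

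EREG, a ligand of EGFR and ERBB4, was the further treatment of experiment 1, and its contrasts share libraries with the one above. Between EREG and EGF 2 of the 12617 genes passed (0.0159%), *Fabp1* and *Fabp2*, both lower with EREG, against 628 at an unadjusted p under 0.05. Between NRG1 and EREG 1051 passed (8.33%). Side by side with the NRG1 values, the fold change of EREG against EGF was −0.11 for *Areg*, 0.27 for *Psat1*, 0.61 for *Phgdh*, −0.09 for *Ero1l*, −0.12 for *Reg1*, −0.18 for *Olfm4*, −0.44 for *Fabp6* and −0.29 for *mt-Cytb*, and none of these passed. In the EREG libraries the ATF4 list's median was 0.43 in replicate 1, 0.04 in replicate 2 and −0.07 in replicate 3. EREG replicate 1 was thus above the other EREG libraries for this list, as EGF replicate 1, at 0.12, was above the other EGF libraries.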

How the data were processed

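Bulk 3′ RNA was measured with barcoded oligo-dT primers. The authors used STAR 2.7.8a with the GRCm38 build, and BRB-seqTools gave the unnormalized UMI counts per gene that they deposited. A deposited sheet maps columns to ligand, experiment, replicate and pool. Symbols and coordinates came from GENCODE on GRCm38 (30934 genes matched, 119 not). A reporter row with 6 counts (2.05e-05%) was left out. Replicates of a ligand were not duplicates (chi-square per degree of freedom 2.03 to 4.14).

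The 9 libraries of experiment 1 were fitted in R 4.3.3 with edgeR 4.0.16 (robust quasi-likelihood, TMM, ligand plus replicate number, 4 residual degrees of freedom), and p-values adjusted by Benjamini-Hochberg over 12617 genes, threshold 0.1. The SE is the log2 fold change divided by the root of F. Same-numbered libraries of different ligands correlated in their deviations from the ligand means (r from 0.11 to 0.23 over 9 pairs and 7563 genes with a mean of at least 20), so the numbers pair them. DESeq2 1.42.0, limma 3.58.1 and other settings were alternatives, and the code was tested on simulated data. The members and the 49 lists were chosen with earlier results of these data known. Named genes were the 12 largest rises and falls with a mean of at least 10, the 10 most abundant that passed, the 10 with the smallest p of the difference between experiments, up to 4 members per list by adjusted p, genes the study names, and ligands and receptors. *Atf4*, *Asns*, *Mthfd2*, *Phgdh*, *Shmt2*, *Ddit3*, *Chac1*, *Trib3*, *Pck2*, *Atf3*, *Car9*, *Pdk1*, *Gclm* and other members given with values were chosen after their values were seen. Windows of 61 nucleotides in the last 500 of transcripts were searched in other genes, and sharing over 10% is stated.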

Additional observations from a re-analysis of the deposited data

Results flagged for a closer look

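The fold change of NRG1 against EGF was tested for a difference between experiment 2 and experiment 1, and the named genes whose difference passed (edgeR adjusted p under 0.1 over 12617 genes) are given here as log2 values for experiment 2 minus experiment 1. The experiments used different mice, so experiment and mouse cannot be told apart.

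Among genes of amino acid metabolism and the ATF4 list, the fold change was lower in experiment 2 for *Psph* (−1.02), *Phgdh* (−1.05), *Psat1* (−0.74), *Shmt2* (−0.69), *Mthfd2* (−0.71), *Chac1* (−1.47), *Atf5* (−1.31), *Stc2* (−0.84), *Vldlr* (−0.93), *Eif4ebp1* (−0.63), *Nupr1* (−0.54), *Oat* (−0.53), *Aldh18a1* (−0.98) and *Srm* (−0.59). It was higher for *Slc7a11* (1.19) and *Otc* (0.52).

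Among glycolysis, hypoxia and mitochondrial genes, the fold change was lower in experiment 2 for *Ankrd37* (−0.89), *Bnip3* (−0.64, with 17.6% of its 3′ windows shared with other genes), *Egln3* (−1.01), *Pdk1* (−0.72), *Pfkp* (−0.66) and *Ndufa4l2* (−1.79). It was higher for *mt-Co1* (0.53), *mt-Cytb* (0.91), *mt-Nd1* (0.53), *mt-Nd2* (0.75), *mt-Nd4* (0.76) and *mt-Nd5* (0.78).

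Among ligand, early response, annexin and regenerative genes, the fold change was lower in experiment 2 for *Areg* (−0.89), *Egr1* (−0.92), *Ier3* (−1.16), *Anxa2* (−0.43) and *Lgals3* (−1.18). It was higher for *Jun* (1.37), *Pdgfa* (1.13) and *Clu* (1.83).

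Among glutathione, absorption, stem cell and other genes, the fold change was lower in experiment 2 for *Gcnt3* (−0.78) and *Selenbp1* (−1.04, with 35.1% of its 3′ windows shared with *Selenbp2*). It was higher for *Gclc* (1.09), *Gclm* (0.76), *Akr1c19* (0.81), *Gstm1* (0.89), *Fabp1* (0.60), *Dnase1* (2.75), *Sox4* (1.05), *Sox9* (0.75), *Ifi27l2b* (0.85), *Lcor* (1.21), *Malat1* (1.24) and *Rec8* (2.31).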

How the results depend on the processing

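All 1170 genes that passed had the same sign in each alternative that could fit them. The number that passed was 1170 (589 higher, 581 lower) and moved most with the model. It was 673 (332 and 341) without the replicate block, 732 (382 and 350) with only the 6 libraries and no block, 505 (271 and 234) with DESeq2, which gave no adjusted p for 6115 genes, 214 of them among the 1170, and 786 (392 and 394) with the sequencing pool in place of the replicate number. When 1 of the 6 libraries was left out it was 600 to 1006, with 310 to 544 higher and 290 to 493 lower. With library totals only, 662 were higher and 503 lower, so the higher share was 56.8% and not 50.3%. The remaining normalizations, filters and fits with a block, and limma-voom, gave 965 to 1196. The 184 genes that differed between the experiments were 96 without the replicate block, 307 with a replicate block within each experiment, and 102 to 216 without 1 library. Of 114 genes named in the text that passed, 78 passed in every alternative that gave them a value. No gene that passed changed sign. Genes that had not passed did so when 1 library was left out, *Hbegf* from −0.21 to 0.52, *Erbb2* from −0.27 to 0.08, *mt-Co1* from −0.13 to 0.04, *Gclm* from −0.04 to 0.33, *Mdm2* from −0.06 to 0.55 and *Malat1* from −0.21 to 0.04. The cause of these shifts was not tested. With 1 mouse per experiment and 3 libraries per ligand, genes of few counts, such as *Dnase1*, *Ereg* and *Egfr*, allow little precision.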

Other observations

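Targets of p53 were higher in part. Of 24 tested, 8 rose, none fell and the median was 0.19, against 4.67% higher and 4.60% lower over all genes tested. Without the block 5 rose, with DESeq2 5, and without EGF replicate 1 5, with a median of 0.12. *Cdkn1a*, which encodes the cell cycle inhibitor p21, was at 1273.8, 1122.0 and 1025.3 with EGF and 3048.3, 1985.0 and 1717.6 with NRG1 (0.94 ± 0.08, edgeR adjusted p = 2.57e-27). *Ccng1*, cyclin G1, was at 81.7, 98.6 and 87.2 against 187, 151 and 123 (0.77 ± 0.15), and *Perp*, a desmosome protein gene, at 384, 372 and 362 against 717, 569 and 483 (0.65 ± 0.10). For these 3 genes every NRG1 library was above every EGF library, and NRG1 replicate 1 was the highest. *Mdm2*, the p53 ubiquitin ligase gene, did not pass (edgeR adjusted p = 0.717). *Gdf15* is also in the ATF4 list.

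Genes of arginine and citrulline metabolism went in both directions. Of 20 tested, 6 rose and 3 fell (4.67% and 4.60% over all genes tested), with a median of 0.05, and without EGF replicate 2 2 rose. In experiment 2, 2 were higher and 3 lower, and 5 of the 20 differed. *Otc*, which makes citrulline in enterocyte mitochondria, was at 711, 784 and 706 with EGF and 551, 431 and 521 with NRG1 (−0.56 ± 0.09, edgeR adjusted p = 1.96e-07), and *Oat*, ornithine aminotransferase, at 1777.1, 1755.0 and 1825.7 against 1456.8, 1149.6 and 1128.6 (−0.53 ± 0.08). *Aldh18a1*, the proline and ornithine precursor enzyme, was at 142, 128 and 136 against 186, 196 and 199 (0.52 ± 0.13), and it did not pass without EGF replicate 2 (edgeR adjusted p = 0.154). It was at −0.46 in experiment 2 (edgeR adjusted p of the difference 0.00175).

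Of 17 hexosamine and glycosylation genes 4 rose and none fell, and 2 rose without EGF replicate 2 or NRG1 replicate 2. *Gfpt1*, the first enzyme of the hexosamine route, was at 203, 178 and 187 with EGF and 421, 343 and 372 with NRG1 (1.00 ± 0.11, edgeR adjusted p = 8.54e-16), with no overlap. It rose by 0.78 in experiment 2. *Sox4*, a transcription factor gene of progenitor cells, fell from 524, 472 and 476 to 279, 246 and 299 (−0.84 ± 0.10, edgeR adjusted p = 7.16e-14) and was at 0.20 in experiment 2. Of 42 actin cytoskeleton genes 9 rose and *Eps8* fell, with a median of 0.15. Without the block 5 rose and without NRG1 replicate 2 4. *Eps8* did not pass without EGF replicate 2 (edgeR adjusted p = 0.133) or NRG1 replicate 2 (0.140). *Tagln2*, transgelin 2, was at 581, 517 and 502 against 895, 826 and 718 (0.61 ± 0.09). Of 79 cytosolic ribosomal protein genes 3 rose and 6 fell (median −0.03), against 4.67% higher and 4.60% lower over all genes tested. None of the ribosomal protein genes fell without the block, and 1 fell without replicate 2 of either ligand or without NRG1 replicate 3, and 2 without EGF replicate 3. Of 27 cholesterol and fatty acid synthesis genes 1 rose and none fell (median −0.08), and none passed without EGF replicate 2.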
